A study of Mus musculus with 24 samples.

Results

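Genes for endoplasmic reticulum (ER) chaperones and for the unfolded protein response (UPR) were followed in oligodendrocytes (OLs) and in total spinal cord RNA of mice after contusive spinal cord injury (SCI). The group holds 31 genes chosen by name, which were found among the 21965 genes of the count table and were all among the 17167 genes with enough counts to be tested. By role they were 5 lumenal and lectin chaperones, 5 disulfide isomerases, 6 co-chaperones of BiP and small ER stress proteins, 3 genes for stress sensors and a transcription factor, 9 genes of ER-associated degradation (ERAD) and 3 genes of the translocon. No measured value entered the rule.

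Secreted and membrane proteins enter the ER through the translocon and are folded there by chaperones, of which BiP (Hspa5) is the major one, and by disulfide isomerases. When unfolded proteins accumulate, membrane sensors of the ER start the UPR. IRE1 (Ern1) splices the mRNA of the transcription factor XBP1, and ATF6 is cut in the Golgi into an active transcription factor. PERK phosphorylates eIF2α, which slows translation and favours ATF4. XBP1 and ATF6 raise genes for chaperones and for ERAD, the path that returns misfolded proteins to the cytosol for destruction. OLs load the same ER with myelin membrane proteins.

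All mice were OL-Ribotag mice, in which a tamoxifen-inducible Cre active in OLs switches on an HA-tagged ribosomal protein RPL22. All groups, controls included, share this genotype and the tamoxifen treatment. Ribosomes precipitated through the tag gave the OL translatome, and an aliquot of the same lysate gave total RNA. Naive mice were compared with mice at 2, 10 and 42 days post-injury (dpi) after a T9 contusion of 50 kdyn with the IH impactor. All were labelled female. The labels give an age of 10 to 12 weeks for every library, naive ones included, while the study's methods give a lower range for the age at injury. According to the methods, naive mice were collected together with those of dpi 42, so that they were matched in age to dpi 42 and older than the mice of dpi 2 and 10. Age and time after injury cannot be told apart in the comparisons of dpi 2 and 10 with naive. Each of the 4 conditions had 3 pools of spinal cord tissue and each pool gave 1 OL and 1 total RNA library, 24 libraries in all. The spread between libraries is a spread between pools and not between single mice. The Cre is also active in Schwann cells. The labels of 2 libraries of dpi 42 contradict themselves, so that these were placed by their description.

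Counts summed to 29075211 to 32987841 per OL library and to 25840127 to 29050061 per total RNA library. The summed level of 8 mature OL markers was 96314 to 157865 counts per 1000000 (CPM) in OL libraries and 19318 to 27881 CPM in total RNA. Of the dpi 42 libraries with contradictory labels, the one placed as OL was at 103467 CPM and the one placed as total RNA at 23342 CPM. Each lay in the range of the kind it was placed in, and these ranges did not overlap. The summed level of 8 microglia and macrophage markers in OL libraries was 10.7 to 16.7 CPM in naive mice and 70.3 to 91.6 CPM at dpi 2, 223 to 256 CPM at dpi 10 and 135 to 231 CPM at dpi 42, with none of the 8 at 0 in any group. In total RNA the same sum went from 182 to 212 CPM to 1253 to 1498, 3409 to 4666 and 1954 to 2951 CPM. Naive pool 3 stood apart, with 636 CPM of 5 Schwann cell markers in its OL library against 1.82 and 1.89 CPM in the other naive pools. In OL libraries after injury the sum of these markers was 214 to 677 CPM at dpi 2, 876 to 1548 CPM at dpi 10 and 1208 to 1404 CPM at dpi 42, and its part in the OL changes given here was not tested. The sum of 6 astrocyte markers in naive OL libraries was 992, 798 and 4538 CPM in the order of the pools. After injury it was 823 to 6651 CPM at dpi 2, 1694 to 5324 CPM at dpi 10 and 1667 to 10925 CPM at dpi 42, highest in dpi 42 pool 1. In total RNA the astrocyte sum was 2291 to 3396 CPM in naive mice and 5317 to 5657 CPM at dpi 2. The part of astrocytes in the OL changes was not tested either. Both libraries of dpi 2 pool 2 held 2414 and 2604 counts on Y-linked genes, although the mice are labelled female, against 0 to 13 in the other 22. In these bulk libraries fewer cells of a type and less RNA per cell cannot be told apart.

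The promoters of the members were examined for the ER stress element (ERSE), which is CCAAT, 9 bases of any kind and CCACG and is the site through which ATF6 and XBP1 act together with the factor NF-Y, and for ERSE-II, which is ATTGG, 1 base of any kind and CCACG. RefSeq (GRCm38.p6) held a promoter window, 250 bases before to 50 after the start, for 26 of the 31 members. An exact ERSE on either strand stood in 39 of all 32851 windows (0.119%) and in the windows of 9 of the 26 members (34.6%): Hspa5, Hsp90b1, Calr, Canx, Pdia6, Dnajc3, Creld2, Syvn1 and Derl3. An exact ERSE-II stood in 12 of all windows (0.0365%) and in those of 2 members (7.69%), Herpud1 and Dnajb11. A gene can have several windows, and the 26 members had 28. The share of all is one of windows and that of the members one of genes. The members were chosen as genes of the response in which the element acts, so their higher share is no independent result. The windows below are those of a selection of the members with a match, and those of Canx, Dnajb11 and Derl3 are not printed. The fixed bases of the element are in capitals, 5′ to 3′ on the strand of the gene, so that an element on the opposite strand reads CGTGG and ATTGG.
Hspa5 (ERSE, chr2:34772020-34772048, + strand): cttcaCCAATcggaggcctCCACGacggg
Hsp90b1 (ERSE, chr10:86705633-86705661, - strand): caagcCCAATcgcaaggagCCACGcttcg
Calr (ERSE, chr8:84847070-84847098, - strand): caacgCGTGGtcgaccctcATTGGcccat
Pdia6 (ERSE, chr12:17266486-17266514, + strand): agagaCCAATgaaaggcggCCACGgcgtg
Dnajc3 (ERSE, chr14:118937822-118937850, + strand): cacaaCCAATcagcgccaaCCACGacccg
Creld2 (ERSE, chr15:88819515-88819543, + strand): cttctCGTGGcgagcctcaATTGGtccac
Syvn1 (ERSE, chr19:6046527-6046555, + strand): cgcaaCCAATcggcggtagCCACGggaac
Herpud1 (ERSE-II, chr8:94386372-94386392, + strand): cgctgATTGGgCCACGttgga

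Counted from the RefSeq start of the window, which can differ from the start of the gene in GENCODE, the element lay 47 to 65 bases before the start of Hspa5, 80 to 98 before that of Pdia6, 87 to 105 before that of Dnajc3 and 108 to 126 before that of Creld2, where it ran on the opposite strand. Hsp90b1 held 2 matches, at 194 to 212 and, on the opposite strand, at 89 to 107 bases before the start. Neither the core of the XBP1 element, TGACGTGG, which 222 of all windows held (0.676%), nor the cyclic AMP response element TGACGTCA, held by 588 (1.79%), occurred as such in a member window, and an exact search misses sites that differ by a base. The fixed parts of the ERSE taken singly were common. CCAAT stood in 37.4% of all windows and in a window of 21 of the 26 members, CCACG in 32.8% and in a window of 23 of the 26. A match describes the letters of the window and not the binding of a factor.

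**Figure D1:**
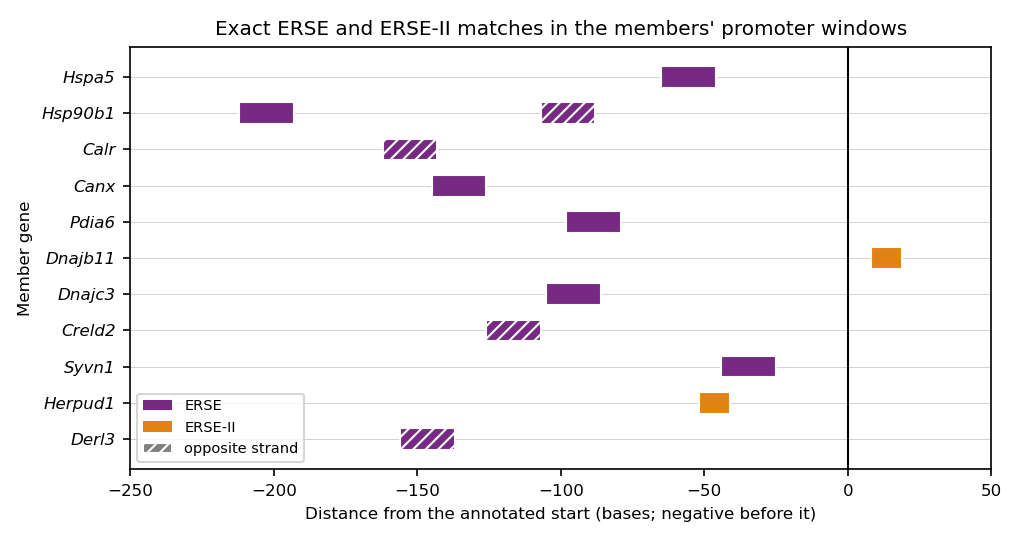
Position of exact ERSE and ERSE-II matches in the promoter windows of the 11 members that hold one. The x axis is the distance in bases from the RefSeq start, each bar is 1 match and hatched bars are on the strand opposite to the gene. All matches but 1 lie upstream of the start, and that of Dnajb11 lies 8 to 18 bases after it.

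In naive OLs the highest members per kb of transcript were Calr at 336 CPM per kb, Hsp90b1 at 279, Hspa5 at 210, P4hb at 197 and Pdia3 at 190. The lowest were Derl3 at 1.07 and Ern1 at 1.74 CPM per kb. OL enrichment, the log2 ratio of OL to total RNA in the same condition, was positive at an adjusted p (q, Benjamini-Hochberg over all tested genes) under 0.05 for 26 of the 31 members in naive mice, where 24.9% of all tested genes were enriched. Of these 19 members were enriched by more than 1 on the log2 scale, where 12.4% of all genes were. The median member was at 1.15 and the median of all genes at -0.27. Pdia4 was the most enriched at 2.10 ± 0.17 (log2, SE, n = 3 and 3, q = 7.74e-10), with 319, 305 and 191 CPM in OL and 72.6, 62.5 and 54.8 CPM in total RNA in the order of the pools. All 5 chaperones, all 5 disulfide isomerases and all 9 ERAD genes were enriched, although with library sizes alone as the scale Herpud1 was at -0.07, whereas Dnajb9 (-0.09, q = 0.61), Manf (0.11, q = 0.418), Xbp1 (0.23, q = 0.369), Ern1 (0.36, q = 0.0845) and Sec61b (-0.02, q = 0.936) were not. No member was depleted (0 in edgeR at q or at an unadjusted p under 0.05, and 0 in DESeq2), against 30.5% of all genes. Scaled by library sizes alone, 21 members were enriched and 3 depleted. Here and below q is from edgeR's quasi-likelihood test and an error after ± of a log2 value is its SE.

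In the OL translatome at dpi 2, 4 of 6 co-chaperones and small ER stress proteins, 4 of 5 disulfide isomerases and 2 of 3 translocon genes were higher than in naive mice. Of the 31 members 16 rose (18.4% of all tested genes rose) and 3 fell (20% of all genes fell), and 4 rose by more than 1 on the log2 scale (10.2% of all genes). The median change of the members was 0.31 and that of all genes 0. At dpi 10 only 2 members were higher than in naive OLs (9.62% of all genes) and 10 were lower (8.59%), with a median of -0.22. At dpi 42, 4 members were higher (16.2%) and 7 lower (16.9%), with a median of -0.06. Without both libraries of dpi 2 pool 2, 14 rose and 2 fell at dpi 2, and without both of naive pool 3, 11 rose and 3 fell at dpi 2, 2 were higher and 13 lower at dpi 10 and 2 higher and 9 lower at dpi 42. Without the pair of dpi 42 libraries with contradictory labels 4 were higher and 5 lower at dpi 42. Without OL pool 3 of the naive group, or without OL pool 1 of dpi 2, 9 members rose at dpi 2. Of the 16 rises 8 passed whichever library was left out, those of P4hb, Dnajb11, Sdf2l1, Manf, Creld2, Derl2, Sec61b and Sec61a1. At dpi 10 the lower levels of Hspa5, Hsp90b1, Hyou1, Canx and Dnajc3 and the higher ones of P4hb and Sec61b passed in the same way, as did at dpi 42 the higher levels of Manf and Sec61b and the lower ones of Canx, Erp44, Atf6 and Sel1l. The balance of directions moved with the scale. With library sizes alone 18 rose and 1 fell at dpi 2, and 5 were higher and 4 lower at dpi 42. With total RNA as the scaling reference 2 were higher and 13 lower at dpi 42. With an offset for gene length and GC content 11 rose and 4 fell at dpi 2, 17 were lower and 0 higher at dpi 10, and 2 were higher and 8 lower at dpi 42.

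**Figure D2:**
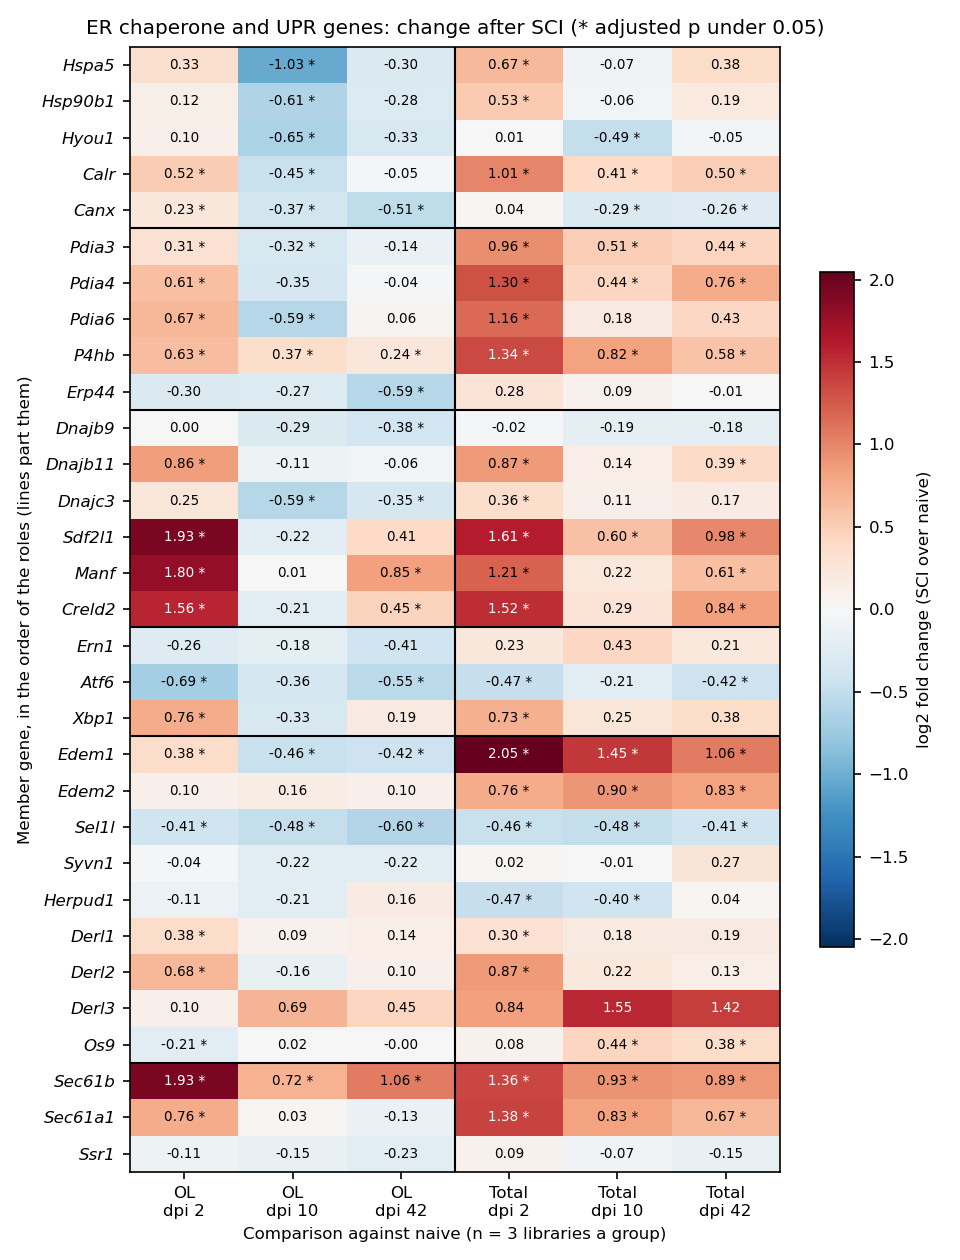
Change of each of the 31 members against naive mice on the log2 scale, as a heat map with genes in rows, ordered by role, and OL libraries and total RNA at dpi 2, 10 and 42 in columns. Colour and printed number give the fitted change and an asterisk marks q under 0.05, so that Sdf2l1, Manf, Creld2 and Sec61b are darkest in OLs at dpi 2 and all 5 chaperones are blue in OLs at dpi 10.

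Of the 4 members that rose by more than 1 in OLs at dpi 2, 3 were small ER stress proteins, and the other was Sec61b. Manf, a small protein that binds BiP and is secreted under ER stress, was at 59.8, 59.6 and 54.2 CPM in the naive OL libraries and at 211, 192 and 201 CPM at dpi 2. It was at 55.6, 62.4 and 56.3 CPM at dpi 10 and at 87.0, 115 and 110 CPM at dpi 42. All dpi 2 libraries were above all others and those of dpi 10 overlapped with naive. The change was 1.80 ± 0.12 at dpi 2 (3.48-fold, q = 3.16e-10), 0.01 ± 0.11 at dpi 10 (q = 1) and 0.85 ± 0.11 at dpi 42 (q = 1.08e-05).

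Sdf2l1, which forms a complex with Dnajb11 in the ER lumen, was at 41.2, 33.5 and 26.2 CPM in naive OLs, at 134, 141 and 110 CPM at dpi 2, at 27.6, 31.5 and 27.6 CPM at dpi 10 and at 30.2, 40.7 and 63.3 CPM at dpi 42. The dpi 2 libraries stood clear of naive, with a change of 1.93 ± 0.23 (q = 1.01e-06), and the other time points overlapped with naive. Creld2, a disulfide isomerase-like protein induced by ER stress, was at 43.1, 43.4 and 38.0 CPM in naive OLs and at 146, 120 and 102 CPM at dpi 2, without overlap, a change of 1.56 ± 0.16 (q = 1.33e-07). At dpi 42 it was at 44.2, 56.9 and 68.6 CPM, above all naive libraries (0.45 ± 0.16, q = 0.0308), but at -0.47 with the offset for gene length and GC content. Dnajb11, a J-domain protein that hands unfolded proteins to BiP, went from 142, 138 and 116 CPM to 241, 247 and 229 CPM at dpi 2 (0.86 ± 0.10, q = 9.73e-07) and was back at 124, 128 and 116 CPM at dpi 10.

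The other J-domain proteins behaved differently. Dnajc3, which also inhibits kinases that phosphorylate eIF2α, was at 238, 214 and 192 CPM in naive OLs, at 273, 251 and 242 CPM at dpi 2 and at 137, 151 and 140 CPM at dpi 10. The dpi 2 libraries lay just above naive without passing the test (q = 0.073). Those of dpi 10 were all below naive (-0.59 ± 0.11, q = 0.000618), as were those of dpi 42 (-0.35, q = 0.0171). Dnajb9, a J-domain protein that acts on IRE1 and on ERAD substrates, was at 46.7, 49.2 and 50.3 CPM in naive OLs and at 56.2, 38.9 and 51.5 CPM at dpi 2, with overlapping groups (0.00 ± 0.14, q = 1). It was lower at dpi 42 (-0.38, q = 0.0353). The dpi 42 falls of Dnajc3 and Dnajb9 did not pass with library sizes alone or in fits of only the groups compared. That of Dnajb9 was also lost without naive pool 3 or without the dpi 42 libraries of contradictory labels.

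**Figure D3:**
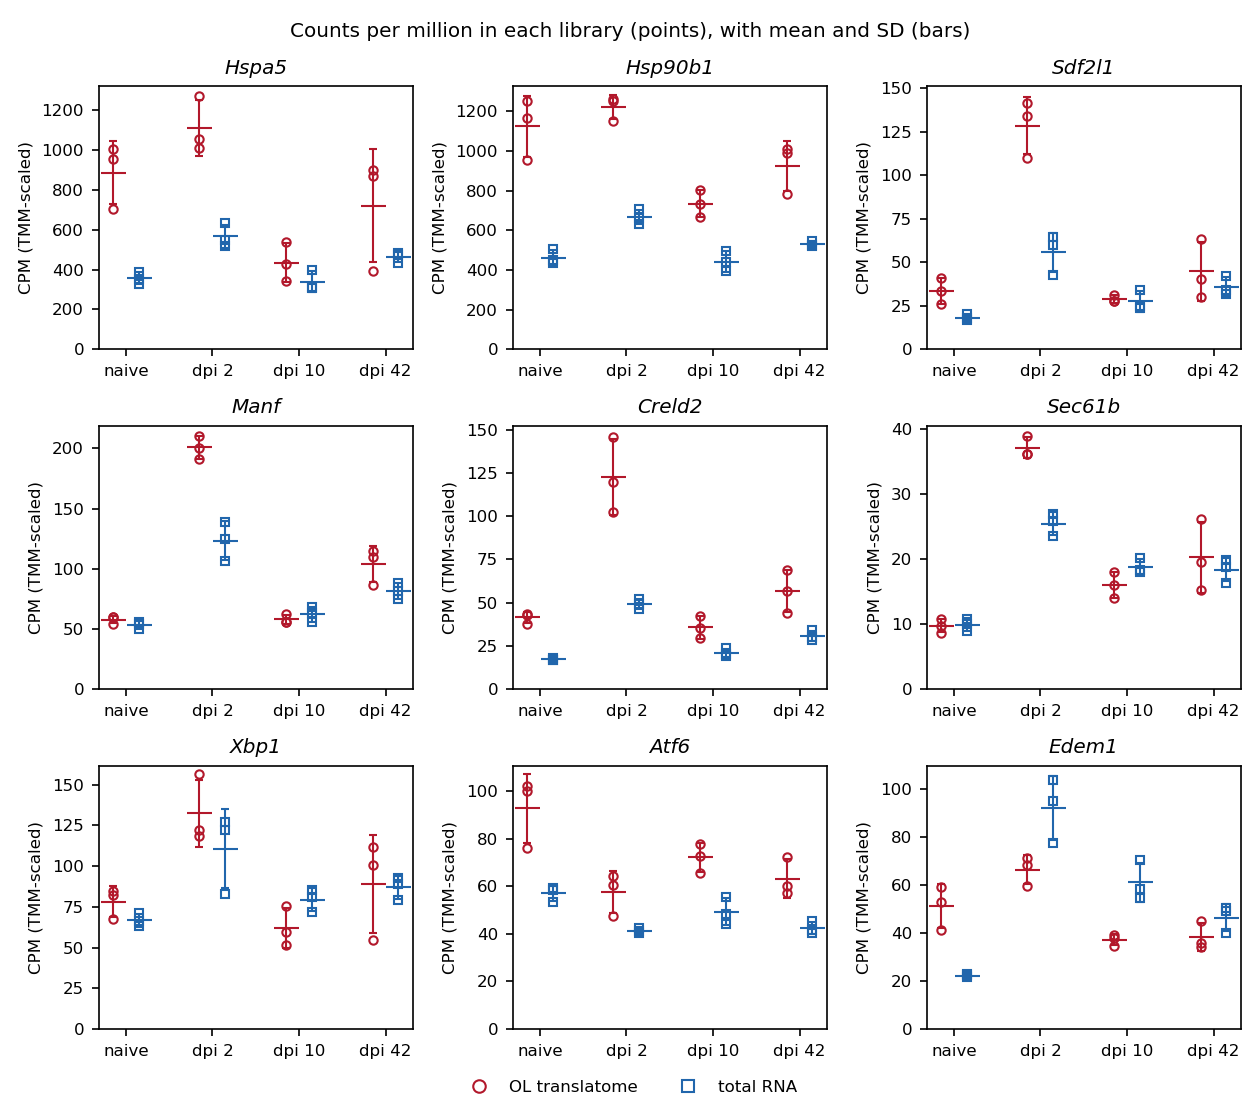
CPM (y axis, linear) of 9 members in every library by condition (x axis), with OL libraries as circles and total RNA as squares. Each point is 1 pool and the bars are the group mean and SD. The OL points of dpi 2 lie above those of the other conditions for Manf, Sdf2l1, Creld2 and Sec61b, and 1 OL library of dpi 42 lies low for Hspa5 and Xbp1.

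The abundant chaperones showed a different order of time points, with a fall at dpi 10. BiP (Hspa5, ENSMUSG00000026864, chr2:34771970-34777547, + strand, GRCm38) was at 1002, 954 and 704 CPM in naive OLs, at 1272, 1009 and 1053 CPM at dpi 2, at 429, 536 and 340 CPM at dpi 10 and at 392, 869 and 901 CPM at dpi 42. The dpi 2 libraries lay above naive by a margin that did not pass the test (0.33 ± 0.22, q = 0.272), and the dpi 10 libraries all lay below naive (-1.03 ± 0.22, q = 0.00271). It was the only member lower by more than 1 at dpi 10, as were 1.26% of all genes. At dpi 42 pool 1 lay with the dpi 10 libraries and the other pools with naive (-0.30 ± 0.22, q = 0.331). That library is one of those with contradictory labels.

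All 5 lumenal and lectin chaperones were lower at dpi 10, of which Calr did not pass with DESeq2 size factors, with library sizes alone, in a fit of only the groups compared or when any 1 of 5 libraries was left out. Hsp90b1, the ER member of the HSP90 family, was at 1250, 1169 and 954 CPM in naive OLs and at 665, 805 and 733 CPM at dpi 10, without overlap (-0.61 ± 0.12, q = 0.000722), and did not pass the test at dpi 2 (0.12, q = 0.453). Hyou1, a nucleotide exchange factor of BiP, was at 214, 211 and 163 CPM in naive OLs and at 120, 138 and 117 CPM at dpi 10, again without overlap (-0.65 ± 0.15, q = 0.0047). Canx and Calr, the lectin chaperones that bind monoglucosylated glycoproteins, rose at dpi 2 (0.23 ± 0.08, q = 0.0199, and 0.52 ± 0.15, q = 0.00758) and fell at dpi 10 (-0.37, q = 0.00145, and -0.45, q = 0.0375). The dpi 10 libraries of Calr overlapped with naive by 1 library. Canx alone of the 5 was also lower at dpi 42, at 542, 588 and 575 CPM against 823, 816 and 798 CPM (-0.51 ± 0.08, q = 2.74e-05).

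Of the disulfide isomerases 4 rose at dpi 2. P4hb, the classical protein disulfide isomerase and a subunit of collagen prolyl 4-hydroxylase, went from 575, 595 and 518 CPM to 894, 871 and 844 CPM at dpi 2 (0.63 ± 0.08, q = 4.32e-06). It stayed above all naive libraries at dpi 10, at 767, 691 and 720 CPM (0.37, q = 0.00363), and at dpi 42 (0.24, q = 0.0314, but -0.23 with the offset for gene length and GC content). All 5 fibroblast markers, whose cells use prolyl 4-hydroxylase for collagen, were higher in OL libraries at each time point, with a sum of 47.9 to 83.4 CPM in naive, 201 to 267 CPM at dpi 2, 522 to 605 CPM at dpi 10 and 205 to 268 CPM at dpi 42. Their part in the level of P4hb was not tested. Pdia4 and Pdia6 rose at dpi 2 by 0.61 ± 0.16 (q = 0.00499) and 0.67 ± 0.19 (q = 0.00758), and Pdia3, which works on glycoproteins held by the lectin chaperones, by 0.31 ± 0.10 (q = 0.0218). At dpi 10 Pdia3 (-0.32, q = 0.0332) and Pdia6 (-0.59, q = 0.035) were lower than in naive OLs, so that P4hb moved against them. Both falls did not pass with library sizes alone or in fits of only the groups compared. That of Pdia3 was lost when any 1 of 5 libraries was left out, and that of Pdia6 when any 1 of 4 was. The rise of P4hb at dpi 10 did not pass with the offset for gene length and GC content or with a block of replicate numbers. Erp44, which retrieves proteins from the early secretory pathway, was at 60.2, 59.4 and 73.5 CPM at dpi 2 against 91.4, 82.6 and 64.3 CPM in naive OLs (-0.30, q = 0.0761) and was lower at dpi 42 (-0.59 ± 0.13, q = 0.00165).

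Among the sensors, Xbp1 rose at dpi 2, from 84.7, 82.4 and 67.4 CPM to 156, 119 and 122 CPM (0.76 ± 0.21, q = 0.00551), and its libraries of dpi 10, at 59.5, 75.7 and 51.7 CPM, overlapped with naive (-0.33, q = 0.307). Counts per gene do not separate the spliced from the unspliced form of its mRNA. Atf6 fell at dpi 2, from 102, 99.9 and 76.1 CPM to 64.1, 60.7 and 47.6 CPM, without overlap (-0.69 ± 0.13, q = 0.000229). It was lower at dpi 42 (-0.55, q = 0.00238). Ern1 was at 12.5, 14.3 and 15.8 CPM in naive OLs and at 10.3 to 13.4 CPM at dpi 2, and did not pass the test at any time point.

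The ERAD genes moved in both directions. Derl2, a subunit of the retrotranslocation channel, was at 38.6, 41.9 and 35.0 CPM in naive OLs and at 60.3, 62.8 and 61.9 CPM at dpi 2 (0.68 ± 0.11, q = 6.22e-05), and overlapped with naive at dpi 10 and 42. Its paralogue Derl1 rose by 0.38 ± 0.11 (q = 0.0103) with libraries that overlapped, and Derl3 stayed at 1.11 to 4.46 CPM in all OL libraries. Sel1l, the adaptor of the ubiquitin ligase Syvn1, was lower at every time point, with changes of -0.41 (q = 0.0081), -0.48 (q = 0.00652) and -0.60 (q = 0.000482) in order of time, whereas Syvn1 did not pass the test at any. Os9, a lectin that delivers glycoproteins to that ligase, was at 276, 287 and 293 CPM in naive OLs and at 242, 237 and 260 CPM at dpi 2 (-0.21 ± 0.07, q = 0.0275). The dpi 2 falls of Sel1l and Os9 did not pass with library sizes alone or in fits of only the groups compared. That of Os9 also did not pass with DESeq2 size factors, or without both libraries of dpi 2 pool 2 or of naive pool 3. Herpud1, another component of the complex, and Edem2, a mannosidase-like protein, did not pass the test in OLs.

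Sec61b, the small β subunit of the SEC61 channel, was at 10.8, 8.71 and 9.79 CPM in naive OLs, at 36.3, 36.2 and 39.0 CPM at dpi 2, at 16.04, 18.03 and 14.1 CPM at dpi 10 and at 26.2, 19.5 and 15.3 CPM at dpi 42. It was the only member above all naive libraries at each time point by a change over 0.5, with 1.93 ± 0.17 (q = 1.73e-08), 0.72 ± 0.17 (q = 0.00399) and 1.06 ± 0.17 (q = 5.04e-05). The rises of Sec61b at dpi 10 and 42 did not pass with the offset for gene length and GC content or with a block of replicate numbers. Sec61a1, the pore-forming subunit, rose at dpi 2, from 186, 192 and 155 CPM to 306, 312 and 284 CPM (0.76 ± 0.10, q = 2.44e-06), and did not pass the test later. Ssr1, a subunit of the translocon-associated protein complex, did not pass the test (-0.11, q = 0.433 at dpi 2).

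Between dpi 2 and dpi 10 the OL levels of 19 members fell (10.6% of all genes) and that of Os9 rose (11.7% of all genes), and 7 members fell by more than 1 (3% of all genes). The median member changed by -0.72. The largest falls were those of Sdf2l1 (-2.15 ± 0.23, q = 9.18e-07), Manf (-1.79, q = 1.92e-09), Creld2 (-1.78, q = 9.76e-08), Hspa5 (-1.35, q = 0.000163), Pdia6 (-1.26, q = 6e-05), Sec61b (-1.21, q = 1.61e-05) and Xbp1 (-1.09, q = 0.000569). In all of these the dpi 10 libraries lay below all those of dpi 2. From dpi 10 to dpi 42 Manf (0.84, q = 0.000827), Creld2 (0.66, q = 0.0147) and Pdia6 (0.65, q = 0.0424) rose (3.28% of all genes), a count that was 9 without the dpi 42 libraries of contradictory labels, and the median member changed by 0.06. In edgeR 0 members fell (3.9% of all genes), 1 had an unadjusted p under 0.05, and 0 fell in DESeq2.

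Members with and without an exact ERSE or ERSE-II were set side by side. Over all tested genes 18.4% rose and 20% fell at dpi 2, 9.62% were higher and 8.59% lower at dpi 10, and 10.6% fell and 11.7% rose from dpi 2 to dpi 10. Of the 11 with a match 5 rose at dpi 2, with a median change of 0.25, and of the 15 with a promoter window and no match 8 rose and 2 fell, with a median of 0.31. At dpi 10, 6 of the 11 were lower (median -0.37), and 2 of the 15 were higher and 3 lower (median -0.22). From dpi 2 to dpi 10, 8 of the 11 fell (median -0.84), and 8 of the 15 fell and 1 rose (median -0.29). Creld2 and Dnajb11 carried the largest dpi 2 changes among the members with a match, and Syvn1, whose window is printed above, was at 93.0 to 120 CPM in naive OLs and at 93.6 to 110 CPM at dpi 2. These medians are descriptions of small lists and were not tested against each other.

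In total RNA more members were raised. At dpi 2, 19 rose (16.4% of all genes) and 3 fell (20.8%), and 10 rose by more than 1 (10% of all genes), with a median of 0.73 against -0.10 for all genes. At dpi 10, 10 were higher (13.9%) and 4 lower (18.2%), and at dpi 42, 13 were higher (10.4%) and 3 lower (12.1%). With total RNA as the scaling reference, 21, 15 and 13 members were higher in order of time and 0 were lower. With library sizes alone 23, 18 and 18 were higher and 0, 1 and 1 lower, and with the offset for gene length and GC content 8 were higher and 0 lower at dpi 42. Edem1, which extracts misfolded glycoproteins from the folding cycle for ERAD, rose most at dpi 2, from 21.5, 22.8 and 22.6 CPM to 95.0, 104 and 77.6 CPM (2.05 ± 0.15, q = 2.66e-09). It was still above naive at dpi 10, at 58.5, 70.2 and 54.4 CPM (1.45, q = 2.62e-07), and at dpi 42 (1.06, q = 2.39e-05). P4hb went from 186, 174 and 172 CPM to 439, 494 and 420 CPM at dpi 2 (1.34 ± 0.08, q = 3.4e-10), and Sec61a1 from 54.4, 50.0 and 49.8 CPM to 142, 129 and 132 CPM (1.38 ± 0.10, q = 1.56e-09). In both the dpi 10 and dpi 42 libraries lay between those of naive and dpi 2 without overlap with naive.

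Hspa5 also rose in total RNA at dpi 2, from 389, 353 and 328 CPM to 632, 550 and 516 CPM (0.67 ± 0.22, q = 0.0226, and q of 0.0608 to 0.0810 without pool 2 or 3 of naive or pool 1 of dpi 2 total RNA), and was at 308, 399 and 313 CPM at dpi 10 (-0.07, q = 0.861). Manf, Creld2 and Sdf2l1 rose by 1.21 (q = 7.62e-08), 1.52 (q = 2.61e-07) and 1.61 (q = 9.99e-06) at dpi 2. Edem2 was higher at all time points (0.76, 0.90 and 0.83, with q of 4.3e-05, 8.73e-06 and 4.45e-05), from 31.4, 29.2 and 24.8 CPM in naive total RNA to 45.4 to 52.0 CPM at dpi 2. The members that fell in total RNA at dpi 2 were Atf6 (-0.47, q = 0.0069), Sel1l (-0.46, q = 0.00399) and Herpud1 (-0.47, q = 0.00785), calls that each depended on the scale. In these total RNA libraries all 8 microglia and macrophage markers and all 5 fibroblast markers were higher than naive at each time point and the neuron markers were lower (7 of 7 at dpi 2, 6 at dpi 10 and 5 at dpi 42). The part of these cells in the changes of the members was not tested. Markers of plasma and B cells, cells rich in this machinery, summed in OL libraries to 0.966 to 1.27 CPM in naive, 15.4 to 26.2 CPM at dpi 2, 12.5 to 18.2 CPM at dpi 10 and 4.54 to 11.3 CPM at dpi 42. In total RNA the sum was 1.64 to 2.71 CPM in naive and 13.97 to 22.2 CPM at dpi 2. Of this sum Sdc1, which is not specific to these cells, made up most, with a mean of 19.5 CPM in OLs at dpi 2, where Cd79a was at 0. The part of these cells was not tested.

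From dpi 2 to dpi 10, 15 members fell in total RNA (4.53% of all genes) and Os9 rose (3.31%), with a median of -0.45. From dpi 10 to dpi 42 no member passed q under 0.05 in total RNA (0.0583% of all genes were higher and 0.204% lower), while 9 had an unadjusted p under 0.05 in edgeR. By the DESeq2 Wald test 0 passed q under 0.05.

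**Figure D4:**
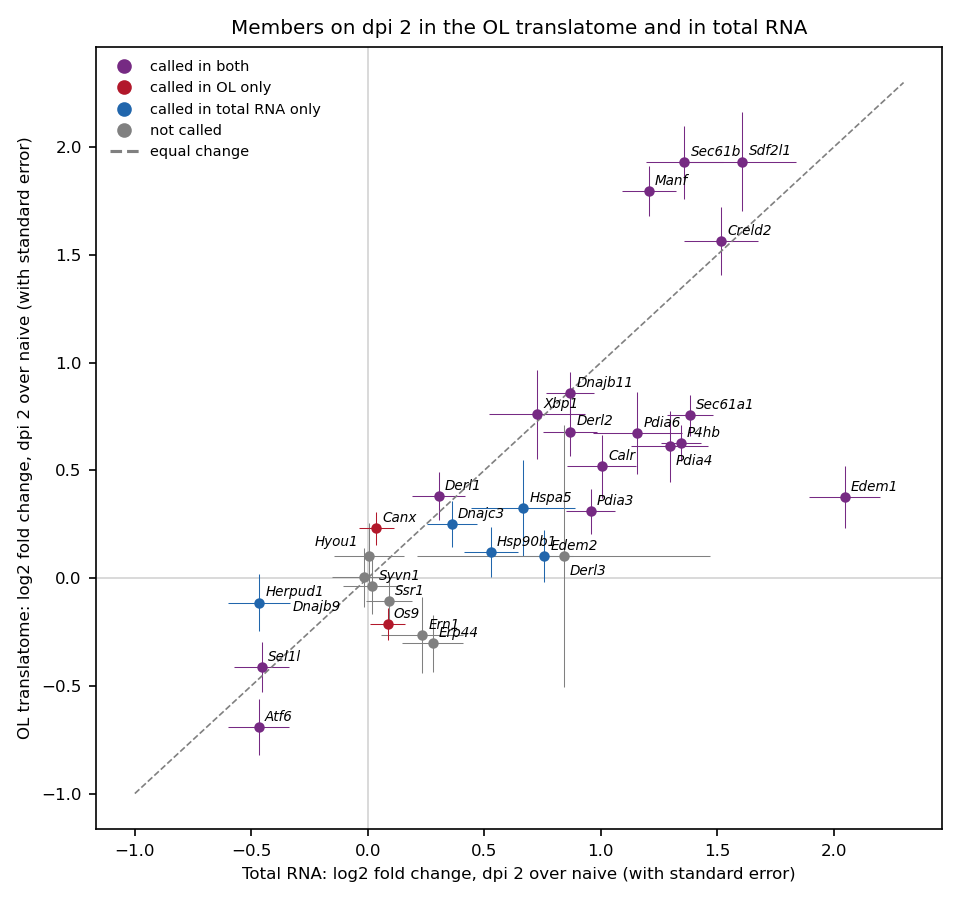
Change at dpi 2 against naive in total RNA (x axis) and in OL libraries (y axis), both on the log2 scale, for the 31 members, with bars of 1 SE and colours for the tests passed. The dashed diagonal marks equal change. Manf and Sec61b lie above the diagonal, and Edem1, P4hb, Pdia4 and Sec61a1 lie below it.

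Differential OL enrichment, the change in the OL to total ratio of the same pools, tested whether the OL translatome and total RNA moved apart. At dpi 2 the enrichment of 7 members fell (5.81% of all genes) and that of Manf rose (7.5%), at dpi 10 that of 13 fell (3.13%), and at dpi 42 that of 10 fell (3.51%), or of 6 without the dpi 42 libraries of contradictory labels. At dpi 10 and 42 it rose for 0 members (4.49% and 4.34% of all genes), with 0 at an unadjusted p under 0.05 in edgeR and 0 in DESeq2. With total RNA as the scaling reference 12 fell and 0 rose at dpi 2. The median members were at -0.19, -0.45 and -0.41 in order of time. OL enrichment itself passed the test for 26 members at dpi 2 (24.8% of all genes), 20 at dpi 10 (25.2%) and 24 at dpi 42 (24.9%), with medians of 0.87, 0.61 and 0.66. Edem1 alone was depleted at dpi 2 (28.8% of all genes) and dpi 10 (28.8%), and 0 members were at dpi 42 in edgeR (28.9%), where 1 had an unadjusted p under 0.05 and 2 passed in DESeq2. With library sizes alone, 14, 9 and 11 members were enriched and 3, 7 and 4 depleted.

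**Figure D5:**
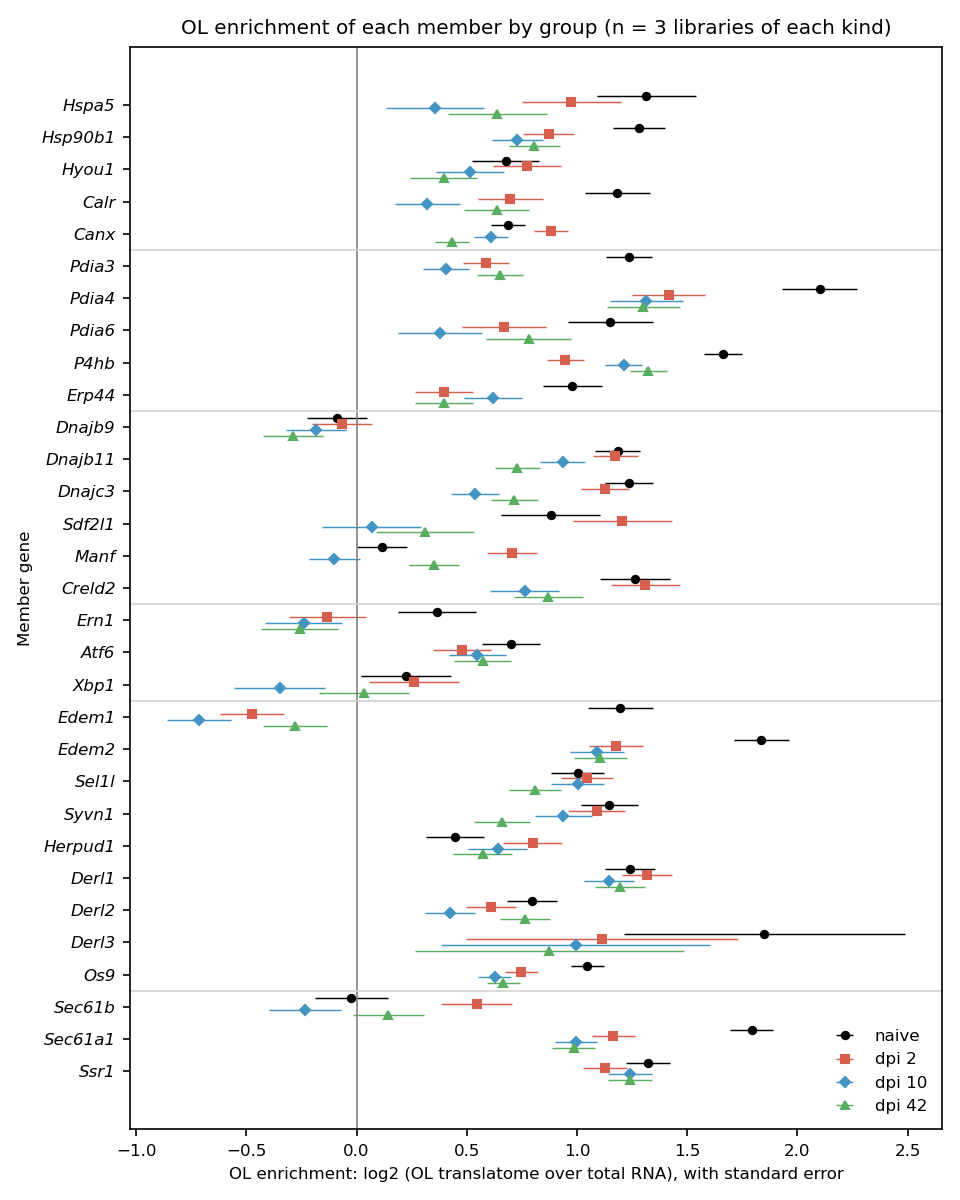
OL enrichment of each member (log2 of OL over total RNA) in naive mice and at dpi 2, 10 and 42. Points are fitted values and bars are 1 SE. Most members lie above 0 in all conditions, and Edem1 goes from above to below 0 after injury.

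Edem1 (ENSMUSG00000030104, chr6:108828641-108859356, + strand, GRCm38) turned from an OL-enriched transcript in naive mice to an OL-depleted one at dpi 2 and 10. In naive mice it was at 59.2, 52.8 and 41.2 CPM in OL and 21.5, 22.8 and 22.6 CPM in total RNA, an enrichment of 1.20 ± 0.15 (q = 4.65e-07). At dpi 2 it was at 71.1, 68.1 and 59.6 CPM in OL and 95.0, 104 and 77.6 CPM in total RNA (-0.47 ± 0.14, q = 0.00884), and at dpi 10 at 38.0, 39.0 and 34.6 CPM in OL (-0.71, q = 0.000286). All OL libraries lay above total RNA in naive mice and all lay below it at dpi 2 and 10. The depletion at dpi 2 did not pass with the offset for gene length and GC content. It was also lost without the total RNA library, or both libraries, of dpi 2 pool 2. At dpi 42 Edem1 was at 34.0 to 44.9 CPM in OL and 39.9 to 50.3 CPM in total RNA, with overlap, and was not called enriched or depleted. Its differential enrichment was -1.65 ± 0.16 at dpi 2 (q = 8.06e-05), -1.89 at dpi 10 (q = 5.24e-05) and -1.46 at dpi 42 (q = 0.000425). In OLs it rose at dpi 2 (0.38, q = 0.0456) and fell at dpi 10 (-0.46, q = 0.0326) and dpi 42 (-0.42, q = 0.0322). The OL rise at dpi 2 was lost when any 1 of 17 libraries was left out. The OL falls were lost when any 1 of 5 libraries was left out at dpi 10, or any 1 of 4 at dpi 42. None of the 3 calls passed in fits of only the groups compared.

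Edem2, Hsp90b1, Pdia3, Pdia4 and Sec61a1 also lost enrichment at all of the time points. Of these only Edem2 passed at each time point whichever library was left out. For Hsp90b1 the call was lost when any 1 of 7, 6 and 8 libraries was left out, in order of time. For Sec61a1 enrichment was 1.79 in naive mice and 1.16, 1.00 and 0.98 after injury, a difference of -0.62 ± 0.14 (q = 0.00977), -0.79 (q = 0.00492) and -0.80 (q = 0.00465). For Hspa5 the enrichment of 1.31 ± 0.23 in naive mice fell by 0.96 ± 0.23 at dpi 10 (q = 0.025), where OL at 340 to 536 CPM overlapped with total RNA at 308 to 399 CPM. That difference missed the threshold when any of 9 libraries was left out, with values of -1.12 to -0.85, and in the fit without the pool block (q = 0.0688). Manf was the exception at dpi 2, where its enrichment went from 0.11 to 0.70 (difference 0.60 ± 0.13, q = 0.0103). It was 0.29 to 0.40 and missed the threshold when any of 11 OL libraries was left out.

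The directions in OL libraries and total RNA were set side by side. At dpi 2, 15 members were higher in both (9.86% of all tested genes) and Atf6 and Sel1l were lower in both (11.9%). At dpi 10 Calr, Pdia3 and Edem1 were lower in OLs and higher in total RNA (0.163%), P4hb and Sec61b were higher in both (6.55%), and Hyou1, Canx and Sel1l were lower in both (5.34%). The OL falls of Calr, Pdia3 and Edem1 did not pass with DESeq2 size factors, with library sizes alone or in fits of only the groups compared, and each was lost when any 1 of 5 libraries was left out. The rise of Calr in total RNA was lost when any 1 of 4 libraries was left out, at 0.29 to 0.43. For Calr this was 668, 804 and 657 CPM in OL against 1061, 1040 and 803 CPM in naive OL, and 490, 658 and 556 CPM in total RNA against 462, 410 and 408 CPM in naive total RNA. At dpi 42 Edem1 was again lower in OLs and higher in total RNA (0.262%), and 8 members were higher in total RNA while their OL change did not pass the test (3.82%). That OL fall of Edem1 did not pass with library sizes alone or in a fit of only the groups compared. It was lost when any 1 of 4 libraries was left out.

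Other genes of the pathway were counted in the same way. Of all tested genes 18.4% rose and 20% fell in OLs at dpi 2, 9.62% were higher and 8.59% lower at dpi 10, and 16.2% were higher and 16.9% lower at dpi 42. In the PERK arm 8 of 12 genes rose and 1 fell in OLs at dpi 2 (median 1.40), 2 rose at dpi 10 (0.33), and 6 rose and 1 fell at dpi 42 (0.61). Atf4, the transcription factor translated when eIF2α is phosphorylated, changed by 1.60 ± 0.13 (q = 6.8e-09), 0.11 (q = 0.64) and 0.44 (q = 0.012) and by 0.54 (q = 0.002) in total RNA at dpi 2. Its targets Atf3 (4.98, 4.29 and 4.23 in OLs) and Nupr1 (4.69, 2.69 and 4.24), a stress-induced chromatin protein, were higher at all time points. Both started low, at 0.40 and 1.46 CPM in naive OLs, and both also rose in total RNA.

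The shares of all tested genes that passed are again 18.4% higher and 20% lower at dpi 2, 9.62% higher at dpi 10 and 16.9% lower at dpi 42. Of 16 other genes of the translocon and signal peptidase 12 rose at dpi 2 (median 0.54), among them the signal peptidase subunits Spcs1 (0.89 ± 0.12) and Spcs2 (0.82 ± 0.09) and the translocon-associated Ssr2 (0.86 ± 0.10). Of the 16, 3 were higher at dpi 10. Of 21 tested genes of oxidative folding and prolyl isomerization 10 rose and 3 fell at dpi 2 (median 0.48), with the prolyl isomerases Fkbp2 at 1.15 ± 0.11 and Ppib at 0.92 ± 0.10. At dpi 10 Fkbp2 was at 0.02 (q = 0.97). The N-glycosylation list of 21 genes had 4 up, a share near that of all genes, and 7 down at dpi 2 (median -0.08), among them the oligosaccharyltransferase subunits Ostc (1.27 ± 0.13) and Dad1 (1.06 ± 0.11), and with 9 down at dpi 42. The 18 other ERAD genes gave 6 up and 5 down at dpi 2, with the ubiquitin-conjugating enzyme Ube2g2 at 1.38 ± 0.17 and the ubiquitin ligase March6 at -0.38 ± 0.12. Among 12 other ER stress transducers 1 rose and 2 fell at dpi 2, with Creb3l1 at 2.18 ± 0.43 and Mbtps2, a protease that cuts ATF6, at -0.95 ± 0.20. The KDEL receptors, which return chaperones from the Golgi to the ER, all rose at dpi 2 (0.41 for Kdelr1 and 0.64 for Kdelr2, while Kdelr3 was at 0.205 CPM in naive OLs and at 3.38 CPM at dpi 2).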

How the data were processed

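Per the labels and the study's methods, the authors counted reads per gene with HTSeq 0.10.0 after quality control with FastQC 0.10.1, on the GRCm38.p6 mouse genome with GENCODE M21 genes, and deposited 1 table of raw counts for 24 libraries. The table held 25840127 to 32987841 counts per library, and 3 counts equalled 0.0840 to 0.127 CPM. Strand use in counting is not given in the sources used here. Symbols were matched to 21939 genes. The members and lists were chosen with earlier results of these data known.

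Genes with at least 10 counts in all libraries together were tested with edgeR 4.0.16 (R 4.3.3), using TMM scaling, the quasi-likelihood test, all 8 groups in 1 fit and Benjamini-Hochberg adjustment over all tested genes at 0.05. CPM are on TMM-scaled library sizes, whose factors were 0.742 to 0.899 in OL and 1.10 to 1.29 in total RNA libraries. The SE is the absolute log2 change over the square root of F. OL and total RNA libraries of a pool come from 1 lysate, so differential enrichment was fitted with the pool as a block, and deviations from group means correlated at more than 0.1 in 8 of 12 such pairs against 1 of 24 pairs of different pools. The 3 pairs of dpi 42 were not among the 8, at -0.051 to 0.035. A fit without this block was an alternative. Replicate numbers did not pair conditions. The test was checked on simulated counts of 15229 genes: at dpi 2 against naive in OLs it recovered 52% of 100 genes changed 2-fold and 16% of 100 changed 1.5-fold, and in differential OL enrichment at dpi 2 it recovered 11% and 1%, with 2 false calls. All simulated libraries were drawn from the naive OL means, with changes only in OLs at dpi 2. They held no difference between OL and total RNA and no shared pools. Changed genes were drawn from all but the lowest levels, so recovery among the members can differ. Alternatives were other scalings, DESeq2 1.42.0, filters, blocks and left-out libraries, of which leaving out naive pool 3 was chosen after seeing the data. All 31 members could be named, and of each other list at most the 3 genes with the smallest unadjusted p in OLs. The promoter that drives Cre is not reported here. Replicates differed by more than sampling noise. The median chi-square per gene between 2 libraries of a group was 2.51 to 3.77 in naive total RNA. In OLs at dpi 2 it was 10.8 to 21.1. For changes and OL enrichment the p-values rest on 1 spread per gene shared by all 8 groups. There, OL and total RNA libraries of 1 lysate were taken as separate. For differential enrichment they rest on the spread left after the pool block.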

Additional observations from a re-analysis of the deposited data

Results flagged for a closer look

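These members moved by a different amount in OL libraries than in total RNA, by the interaction of library kind and condition in edgeR's quasi-likelihood test with the pool as a block, with q adjusted over all tested genes. Values are differences of log2 changes, OL minus total RNA, each against naive.

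At dpi 2 they were Edem1 at -1.65 (q = 8.06e-05), P4hb at -0.71 (q = 0.00197), Pdia4 at -0.66 (q = 0.0117), Pdia3 at -0.65 (q = 0.00573), Edem2 at -0.64 (q = 0.00499), Sec61a1 at -0.62 (q = 0.00977) and Hsp90b1 at -0.40 (q = 0.0477). Manf, at 0.60 (q = 0.0103), was the only member with a positive difference that passed. The falls of Pdia3, P4hb, Edem1 and Edem2 passed whichever library was left out, and the rise of Manf did not.

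At dpi 10 the chaperones Hspa5 (-0.96, q = 0.025), Calr (-0.85, q = 0.00492) and Hsp90b1 (-0.54, q = 0.0185) passed. So did the disulfide isomerases Pdia3 (-0.82, q = 0.00264), Pdia4 (-0.76, q = 0.00992), Pdia6 (-0.76, q = 0.0439) and P4hb (-0.45, q = 0.0373). The others were Edem1 (-1.89, q = 5.24e-05), Sec61a1 (-0.79, q = 0.00492), Sdf2l1 (-0.78, q = 0.0351), Edem2 (-0.73, q = 0.00441), Dnajc3 (-0.69, q = 0.00512) and Os9 (-0.42, q = 0.0335). Of these 13 the falls of Calr, Pdia3, Dnajc3, Edem1, Edem2 and Sec61a1 passed whichever library was left out.

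At dpi 42 they were Edem1 (-1.46, q = 0.000425), Sec61a1 (-0.80, q = 0.00465), Pdia4 (-0.79, q = 0.00801), Edem2 (-0.71, q = 0.00488), Pdia3 (-0.58, q = 0.0171), Calr (-0.56, q = 0.0389), Dnajc3 (-0.52, q = 0.0225), Hsp90b1 (-0.48, q = 0.0331), Dnajb11 (-0.45, q = 0.0415) and Os9 (-0.38, q = 0.0493). Those of Pdia4, Edem1, Edem2 and Sec61a1 passed whichever library was left out. Without the pool block 6, 10 and 7 members fell in order of time. The calls of Hsp90b1 and Pdia4 at dpi 2 (q = 0.107 and 0.0519), of Hspa5, Pdia6 and Sdf2l1 at dpi 10 (q = 0.0688, 0.0879 and 0.135) and of Hsp90b1, Calr and Dnajb11 at dpi 42 (q = 0.0794, 0.117 and 0.0530) then ended. At dpi 42 libraries of the same pool did not deviate together, at correlations of -0.051 to 0.035. The levels of immune and fibroblast markers rose in total RNA at the same time points, and their part in these differences was not tested.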

How the results depend on the processing

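Values are counts of members past q under 0.05, higher or lower, under 1 changed choice. The replicate block of replicate numbers is the exception, since it was also fitted on only the groups compared. The cause of each shift was not tested. Of 262 member values that passed the test, 136 passed under every setting and 179 under every setting other than library sizes alone and the length and GC offset. Filtering by expression or testing every gene with a count moved no count by more than 1.5 times.

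DESeq2 size factors gave 2 members depleted in OLs at dpi 42 against 0. The DESeq2 Wald test also gave 2, and 5 members higher in OLs at dpi 42 than at dpi 10 against 3.

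Library sizes alone shifted the median of all genes in OL enrichment by -0.57 to -0.50. In OL changes against naive the lower members became 1, 6 and 4 in order of time. In total RNA the lower members became 0, 1 and 1, and the higher ones at dpi 10 became 18. OL enrichment gave 3 depleted in naive, 14 enriched and 3 depleted at dpi 2, 9 and 7 at dpi 10, and 11 and 4 at dpi 42. From dpi 2 to dpi 10 0 members rose in OLs, and from dpi 10 to dpi 42 5 did. Enrichment changed sign in naive for Manf (-0.40) and Herpud1 (-0.067), at dpi 2 for Erp44 (-0.17), Atf6 (-0.095) and Sec61b (-0.022), at dpi 10 for Sdf2l1 (-0.51), Pdia3 (-0.17), Derl2 (-0.15), Hyou1 (-0.063), Dnajc3 (-0.039) and Atf6 (-0.031), and at dpi 42 for Xbp1 (-0.48), Manf (-0.16), Hyou1 (-0.11), Erp44 (-0.11) and Canx (-0.068).

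With a total RNA library as the TMM reference, 2 members were higher and 13 lower in OLs at dpi 42, 0 were lower in total RNA at each time point, and 2 were depleted in OLs at dpi 42. Differential enrichment then rose for 0 and fell for 12 members at dpi 2 and fell for 18 at dpi 42. The offset for length and GC content gave 0 higher and 17 lower in OLs at dpi 10, 2 higher at dpi 42, 1 lower in total RNA at dpi 2, 8 higher and 0 lower in total RNA at dpi 42, 0 depleted at dpi 2, and 0 and 1 members rising in OLs from dpi 2 to dpi 10 and from dpi 10 to dpi 42. It turned Os9 in OLs at dpi 10 (-0.37), P4hb (-0.23) and Creld2 (-0.47) in OLs at dpi 42, and the naive enrichment of Sec61b (0.47).

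Fits of only the groups compared gave 1 lower in OLs at dpi 2, 6 lower at dpi 10, 2 higher and 3 lower at dpi 42, 21 and 20 higher in total RNA at dpi 10 and 42, 4 falls of enrichment at dpi 42, 0 rises in OLs from dpi 2 to dpi 10, 1 rise from dpi 10 to dpi 42 and 3 in total RNA. With a replicate block of replicate numbers, also in fits of only the groups compared, OLs had 0 higher and 3 lower members at dpi 10 and 0 and 0 at dpi 42. In either later interval 0 members rose in OLs. The effect of the block was not separated from that of the smaller fit. Total RNA had 21 and 20 higher at dpi 10 and 42, and 1 higher at dpi 42 than at dpi 10. With a replicate block of tissue pools, Calr passed as enriched at dpi 10 (0.33) and Hyou1 no longer passed at dpi 42 (0.35), and no other call of OL enrichment changed. With no replicate block, enrichment fell for 6, 10 and 7 members in order of time.

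Without both libraries of dpi 2 pool 2, 0 members were depleted at dpi 2 and 0 rose in OLs from dpi 2 to dpi 10. Without the dpi 42 libraries of contradictory labels, enrichment fell for 6 members at dpi 42 and 9 rose in OLs from dpi 10. Without naive pool 3, 2 were higher in OLs at dpi 42.

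With 1 library left out at a time, 9 to 17 members rose in OLs at dpi 2, 5 to 13 were lower at dpi 10, and 2 to 4 were higher and 5 to 13 lower at dpi 42. In total RNA 0 to 3, 1 to 4 and 0 to 3 were lower in order of time. In OL enrichment 0 to 1 were depleted at dpi 2 and 0 to 1 at dpi 42. Differential enrichment rose for 0 to 1 and fell for 4 to 13 at dpi 2, and fell for 6 to 15 at dpi 10 and 4 to 18 at dpi 42. In OLs 1 to 2 rose from dpi 2 to dpi 10, and 1 to 7 rose and 0 to 1 fell from dpi 10 to dpi 42.

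With 3 pools per condition, 52% of 2-fold and 16% of 1.5-fold changes were recovered in simulated OL counts at dpi 2, and 11% and 1% in differential enrichment, so a member that missed the threshold is not shown to be constant. Derl3, at 1.11 to 4.46 CPM in OLs, had the least depth.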

Other observations

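Per kb of transcript the order of the members in OLs shifted with time. In naive OLs Calr ranked 1 of the 31, and it ranked 1, 2 and 1 at dpi 2, 10 and 42. P4hb went from 4 to 2, 1 and 2, while Hspa5 went from 3 to 4, 7 and 5. Among the small ER stress proteins Sdf2l1 went from 16 to 8 at dpi 2 and was at 19 and 13 later, Creld2 from 17 to 11, then 18 and 12, and Manf from 25 to 14, then 24 and 19. These ranks describe group means and were not tested.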
